A study of Mus musculus with 2 samples.

Results

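Oligodendrocyte precursor cells of the lateral hypothalamic area, a brain region that regulates arousal, feeding and motivated behaviour, were described from 2 single-cell RNA libraries of C57BL/6 mice at postnatal day 30. A precursor was a cell with at least 500 genes, at most 20% of its unique molecular identifiers (UMIs, each the count of 1 captured transcript) from mitochondrial genes, at least 1 UMI of Pdgfra, at least 2 UMIs of Cspg4, C1ql1 and Matn4 together, and at most 2 UMIs of Mog, Mag and Opalin together. This rule found 190 precursors among 6906 kept cells, 87 of 3276 in the library labelled male and 103 of 3630 in the library labelled female. The library labelled male pooled 3 animals and the library labelled female pooled 2, and all 5 were littermates, with no treatment named in the labels. Where 2 values are given for a cell group, the first is from the library labelled male and the second from that labelled female.

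Sex-linked transcripts in the precursors went against both labels, so the libraries are called by their labels throughout. Xist, the RNA of the inactive X chromosome, had 850 UMIs, with at least 1 in all 87 precursors, in the library labelled male and 0 UMIs in the library labelled female. The Y-linked genes Ddx3y, Eif2s3y, Kdm5d and Uty had 0 UMIs in the library labelled male and 49, 23, 12 and 10 UMIs in the library labelled female. No result below compares sexes.

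Oligodendrocyte precursors, also known as NG2 glia after the proteoglycan that Cspg4 encodes, divide in the adult brain and give rise to the oligodendrocytes that wrap axons in myelin. Their growth depends on platelet-derived growth factor acting on the receptor that Pdgfra encodes. They receive synapses from neurons, and on leaving the precursor state they lose Pdgfra and Cspg4 and pass through a stage marked by the receptor Gpr17 before they make myelin.

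The members were chosen by their UMIs of the rule's genes, so these genes are given as a description only, with no test. Pdgfra stood at 1461 and 1400 UMIs per 1000000 UMIs of the group (CPM) in the precursor sums, against 5.65 and 5.58 CPM in the other kept cells. A precursor held from 1 to 14 Pdgfra UMIs in the library labelled male and from 1 to 11 in the library labelled female, with a median of 5 in each. C1ql1, which encodes a secreted synapse-organising protein, was found in 80 of 87 and 98 of 103 precursors, Matn4, a matrix protein gene, in 62 and 73, and Cspg4 in 54 and 66. At the edge of the rule, 3 and 10 precursors had exactly 2 UMIs of the 3 genes together, and 5 and 8 had a single Pdgfra UMI. Just outside, 7 and 7 cells had Pdgfra with 1 UMI of the 3 genes, and 54 and 69 cells had 2 or more UMIs of the 3 genes without Pdgfra. A further 47 and 63 cells had Pdgfra with none of the 3 genes, and 15 and 18 of those carried fibroblast markers. The limit on Mog, Mag and Opalin alone left out 3 and 5 cells.

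The label was checked with genes the rule did not use. Olig1, a transcription factor of the oligodendrocyte lineage, stood at 1789 and 1599 CPM in the precursors, against 191 and 188 CPM in the other kept cells. After each cell was thinned to 2000 UMIs, Olig1 was found in 90.6% and 93.2% of precursors, against 23.5% and 22.8% of the other kept cells, which include other cells of the same lineage. Only 1 and 4 precursors had no UMI of either Olig1 or Olig2.

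Precursors were 2.66% of kept cells in the library labelled male (exact Clopper-Pearson 95% interval 2.13% to 3.27%) and 2.84% in the library labelled female (2.32% to 3.43%). The intervals overlapped. These and all later intervals cover counting error only, and dissociation and cell capture can change such shares. Precursors were shallow, with medians of 2364 and 2503 UMIs and 1483 and 1549 genes per cell, against 6101 and 6575 UMIs in the other kept cells. The 2 libraries shared 18 barcodes, none of which was a precursor in either.

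Some precursors carried many transcripts of other cell types, and because they were deep they weighed heavily on the sums. In each library 6 precursors had more than 10 UMIs of the neuron genes Snap25, Syt1, Stmn2 and Rbfox3 together, and these held 29.9% and 24.1% of all precursor UMIs. Counting endothelial, mural, fibroblast, microglia, hemoglobin and astrocyte genes as well, 16 and 15 precursors carried markers of another lineage and held 40.9% and 34.0% of the UMIs. The other 71 and 88 precursors had medians of 2301 and 2459.5 UMIs. The cells with the highest doublet scores, 95 and 115 of all barcodes, included 5 precursors in each library. Each comparison with another cell group was therefore also made with cells carrying other-lineage markers left out. Against the other kept cells they were left out of the precursors only, so that change is 1-sided. Against the more similar groups they were left out of both arms, except that astrocyte genes did not mark astrocytes. The values are given for some of the lists and genes whose calls changed, not for all.

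**Figure D1:**
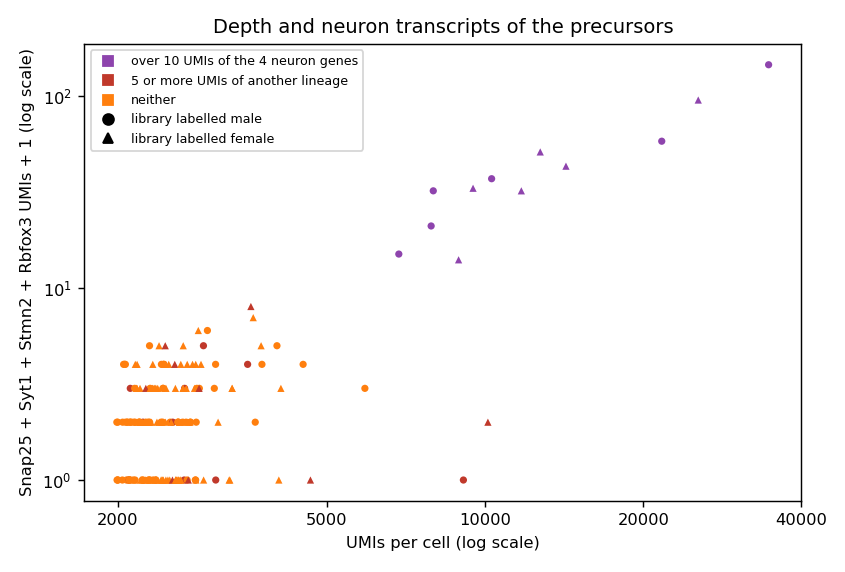
Each point is 1 precursor, with its UMIs on the x axis and the summed UMIs of Snap25, Syt1, Stmn2 and Rbfox3 plus 1 on the y axis, both logarithmic. Circles stand for the library labelled male and triangles for the library labelled female. Most precursors lie near the medians of 2364 and 2503 UMIs with few neuron transcripts, and 6 cells in each library lie above the limit of 10 UMIs.

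Counts were summed per library and cell group and compared with edgeR's quasi-likelihood test, with the library as a block. The precursors were set against all 6716 other kept cells, and against the 3 most similar groups. Mature oligodendrocytes (584 and 576 cells) had 3 or more UMIs of Mog, Mag and Opalin, newly formed oligodendrocytes (105 and 137) had 3 or more of Gpr17, Enpp6 and Bmp4, and astrocytes (168 and 258) had 3 or more of Aqp4, Gja1, Slc39a12 and Ntsr2. Mature oligodendrocytes also had at most 1 UMI of Gpr17, Enpp6 and Bmp4 together, and astrocytes at most 2 UMIs of Mog, Mag and Opalin together. Newly formed oligodendrocytes had no limit on Mog, Mag and Opalin, which together stood at 3174 and 2906 CPM there, against 4611 and 3910 CPM in mature oligodendrocytes. C1ql1 was found in 31.4% and 29.9% of the newly formed cells, so their gate does not fix 1 narrow stage. All 3 groups lacked Pdgfra, and the genes of either gate were not tested. Each fit has 4 sums from the same 2 libraries and 1 residual degree of freedom, so its p-values lean on the spread shared across genes. The standard errors (SE) are worked back from the same test and do not measure a spread between libraries. A gene is called at an adjusted p (Benjamini-Hochberg over all genes tested) under 0.05. Fitted log2 fold changes are relative to TMM scaling, which placed them below the plain CPM ratio by 0.15 (log2) against the other kept cells, 0.70 against mature oligodendrocytes, 0.31 against newly formed oligodendrocytes and 0.08 against astrocytes.

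Against the other kept cells, 1472 of 14466 genes tested (10.2%) were higher in precursors and 1834 (12.7%) were lower, 22.9% in all. Against mature oligodendrocytes, 2000 of 10910 genes (18.3%) were higher and 2179 (20%) lower, 38.3% in all. Against newly formed oligodendrocytes, 1343 of 7916 genes (17%) were higher and 1414 (17.9%) lower, 34.8% in all. Against astrocytes, 880 of 8866 genes (9.93%) were higher and 875 (9.87%) lower, 19.8% in all. With precursors carrying other-lineage markers left out, 1633 genes (11.4%) were higher and 2541 (17.7%) lower than in the other kept cells. With such cells left out of both groups, 1957 (19.6%) and 2172 (21.8%) were higher and lower than in mature oligodendrocytes. Against newly formed oligodendrocytes the counts were 1333 (19.1%) and 1365 (19.6%), and against astrocytes 884 (15.4%) and 983 (17.1%). Of the calls made with all cells, 91.7%, 84.3%, 81.4% and 69.3% were made again in the 4 comparisons, and they were 72.6%, 85.3%, 83.2% and 65.1% of the calls made without those cells. Of these shared calls, 7 against the other kept cells and 1 against astrocytes changed direction.

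The transcription factors that define the oligodendrocyte lineage were high in precursors, and a subset of them set precursors apart from their own progeny. Of 33 lineage factors tested against the other kept cells, 22 rose and 4 fell, against backgrounds of 10.2% and 12.7%, with a median log2 fold change of 1.77 (0.00 over all genes tested, with genes at 0 UMIs set to their bound). Olig2, a partner of Olig1, stood at 786 and 506 CPM in precursors, against 40.9 and 37.9 CPM in the other kept cells. It was higher by 3.86 ± 0.14 on the log2 scale (SE, edgeR adjusted p = 1.3e-149). Sox10, a factor of the whole lineage, stood at 368 and 371 CPM in precursors, against 346 and 310 CPM in mature and 549 and 549 CPM in newly formed oligodendrocytes. It fell by 0.88 on the log2 scale against the newly formed cells (SE 0.14, edgeR adjusted p = 2.3e-06).

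Etv4 and Etv5, ETS factors induced by growth factor signalling, stood at 104 and 58.5 CPM and at 174 and 161 CPM in precursors, against 1.7 and 2.49 CPM and 10.8 and 12.2 CPM in the other kept cells. They were higher by 5.08 ± 0.41 and 3.70 ± 0.24 on the log2 scale (SE, edgeR adjusted p = 1.7e-32 and 7.6e-53), and both precursor sums of each gene lay above both comparator sums.

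The precursors and the newly formed oligodendrocytes differed in which Sox and differentiation factors they carried. Of 29 lineage factors tested between them, 14 rose and 10 fell in precursors, against backgrounds of 17% and 17.9%. Sox11, an early SoxC factor, had 197 and 193 CPM in precursors, against 36 and 31.8 CPM in newly formed oligodendrocytes, and was higher by 2.22 ± 0.24 (log2, SE, edgeR adjusted p = 7e-10). Its relative Sox4 went the other way, with 161 and 202 CPM in precursors against 655 and 582 CPM in newly formed oligodendrocytes, and fell by 2.07 on the log2 scale (SE 0.16, edgeR adjusted p = 1.3e-13). These were named after their values were seen. Tcf7l2, a Wnt effector of the premyelinating stage, had 53.5 and 61.4 CPM in precursors, against 569 and 640 CPM in newly formed and 28.6 and 34.6 CPM in mature oligodendrocytes. Myrf, the activator of myelin genes, had 20.1 and 20.5 CPM in precursors, against 413 and 459 CPM in newly formed oligodendrocytes, and fell by 4.72 on the log2 scale (SE 0.25, edgeR adjusted p = 3.2e-18). Nkx6-2, a repressor of the maturing lineage, fell by 4.59 against mature oligodendrocytes, with 33.4 and 29.2 CPM in precursors against 476 and 451 CPM.

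Against astrocytes, the other large glial lineage, 17 of 30 lineage factors rose and 5 fell, against backgrounds of 9.93% and 9.87%, with a median log2 fold change of 1.31. Sox10 had 368 and 371 CPM in precursors, against 5.45 and 5.72 CPM in astrocytes. Sox9, which in the adult brain marks astrocytes, had 23.4 and 11.7 CPM in precursors, against 301 and 244 CPM in astrocytes, and fell by 4.04 on the log2 scale (SE 0.32, edgeR adjusted p = 4.9e-14). With cells carrying other-lineage markers left out, 15 of 29 factors rose and 11 fell, and the call of Hes5 moved from not called to lower.

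**Figure D2:**
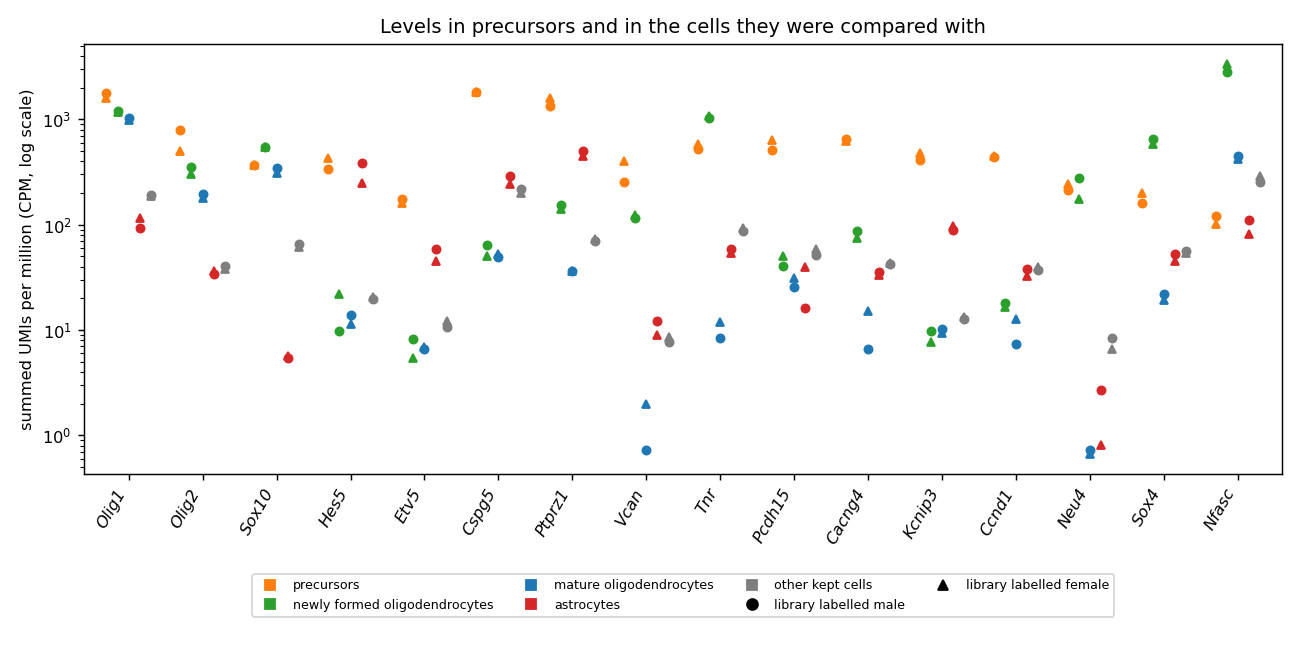
CPM on a log axis for 16 genes in precursors and, to their right, in the 4 comparator groups, with circles for the library labelled male and triangles for the library labelled female. Sox10, Nfasc, Tnr and Sox4 peak in newly formed oligodendrocytes, and Kcnip3, Ccnd1 and Cspg5 are highest in precursors.

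Transcripts of the Notch pathway, by which neighbouring cells hold one another in an undifferentiated state, were present on both the ligand and the target side. Dll1, a ligand, had 33.4 and 58.5 CPM in precursors, against 4.35 and 5.54 CPM in the other kept cells, and was higher in all 4 comparisons, by 3.07 ± 0.44 on the log2 scale in this one (SE, edgeR adjusted p = 1.7e-10). Dll3, a ligand relative that acts within the cell, had 20.1 and 26.3 CPM in precursors, against 9.32 and 10.2 CPM in the other kept cells (log2 fold change 1.10 ± 0.50, SE, edgeR adjusted p = 0.1), and against mature oligodendrocytes it was higher by 4.23 ± 0.69 (edgeR adjusted p = 7.2e-09). The receptor gene Notch1 had 97 and 140 CPM in precursors, against 12.1 and 13.7 CPM in the other kept cells. Hes5, a target gene of the pathway, had 338 and 427 CPM in precursors, against 13.9 and 11.3 CPM in mature oligodendrocytes and 383 and 251 CPM in astrocytes. It was higher than in mature oligodendrocytes by 4.22 ± 0.19 (log2, SE, edgeR adjusted p = 3e-102) and did not differ from astrocytes beyond the test's threshold (0.23 ± 0.20, edgeR adjusted p = 0.49). With cells carrying other-lineage markers left out, Hes5 was called lower than in astrocytes. Hes1, a second target, had 201 and 129 CPM in precursors, against 16.9 and 15.8 CPM in the other kept cells. Notch1 and Hes1 were called higher than in astrocytes with all cells (log2 fold changes 0.80 and 0.69). They were not called there with cells carrying other-lineage markers left out (-0.13 and -0.07). Of 22 genes of the Notch and Wnt list tested against the other kept cells, 8 rose and 1 fell, against backgrounds of 10.2% and 12.7%, and 13 were not called. The 8 included Notch3, a mural cell gene, which was not called with precursors carrying other-lineage markers left out (-1.99), where 8 rose and 3 fell.

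The promoters of genes in the Notch and growth factor groups were searched for short sequences that lineage factors bind, and 2 are shown because they belong to the ligand genes and hold CAGCTG, an E-box letter sequence that proneural factors can bind. Of 9 genes looked for, 8 had a promoter in the RefSeq table of GRCm38.p6, read as the 250 bases before the start site. Each of 7 motifs was searched on both strands. Of all 32851 promoters of that length, 13.0% hold CAGCTG. The E-box relatives CAGGTG at 17.2% and CACGTG at 6.02%, the Sox-type letters ACAAAG at 16.5% and AACAAT at 9.42%, the ETS-type letters CCGGAA at 12.03% and the letters GGCGCC at 9.59% were the others. Among the genes looked for, CAGCTG was found in Dll1, Dll3 and the second start site of Etv5. In the Dll1 promoter (second start site, chr17:15376933-15377182, minus strand) it begins at base -132 from the start site, and in the Dll3 promoter (chr7:28301786-28302035, minus strand) at base -7. The first start site of Dll1 held no CAGCTG. A match of this kind is a description of the letters, and no binding was measured here. The 2 promoters follow 5′ to 3′ on the gene's strand, with CAGCTG in capitals.
Dll1: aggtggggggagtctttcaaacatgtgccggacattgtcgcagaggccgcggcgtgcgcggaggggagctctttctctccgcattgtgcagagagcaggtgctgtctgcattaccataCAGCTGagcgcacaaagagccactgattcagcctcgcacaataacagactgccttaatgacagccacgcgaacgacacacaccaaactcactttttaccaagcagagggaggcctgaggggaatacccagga
Dll3: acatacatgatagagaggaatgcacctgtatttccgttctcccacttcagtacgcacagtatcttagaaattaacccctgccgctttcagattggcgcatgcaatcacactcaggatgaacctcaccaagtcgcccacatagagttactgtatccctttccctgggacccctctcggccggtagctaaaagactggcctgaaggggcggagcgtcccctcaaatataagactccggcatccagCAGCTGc

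Growth factor feedback genes were high in precursors, while most genes of the growth factor list were not called against the other kept cells. Spry1, an inhibitor of receptor tyrosine kinase signalling, had 167 and 117 CPM in precursors, against 7.08 and 5.69 CPM in the other kept cells, and was higher by 4.31 ± 0.29 (log2, SE, edgeR adjusted p = 2.6e-48). Dusp6, a phosphatase that switches off ERK, had 90.3 and 93.6 CPM in precursors, against 11.9 and 11 CPM. Bmp7, a secreted ligand, had 73.6 and 87.7 CPM in precursors, against 3.54 and 3.02 CPM. All 3 were also higher than in mature oligodendrocytes, newly formed oligodendrocytes and astrocytes. Of 30 growth factor receptors, ligands and feedback genes tested against the other kept cells, 7 rose and 3 fell, against backgrounds of 10.2% and 12.7%. The 7 were Spry1, Spry2, Spry4, Dusp6, Bmp7, Ntrk2 and Lifr. Once precursors carrying other-lineage markers were left out, 8 rose and 6 fell, against backgrounds of 11.4% and 17.7%. Of 24 tested against mature oligodendrocytes 14 rose and 4 fell, against backgrounds of 18.3% and 20%. Against newly formed oligodendrocytes 9 of 20 rose and 3 fell, against backgrounds of 17% and 17.9%. Against astrocytes 5 of 23 rose and 7 fell, against backgrounds of 9.93% and 9.87%. DESeq2 called 7 of 24, 6 of 20 and 2 of 23 higher in these 3 comparisons. Fgfr2 fell to 13.4 and 2.92 CPM in precursors, against 198 and 203 CPM in mature oligodendrocytes, and Fgfr3 to 40.1 and 26.3 CPM, against 475 and 473 CPM in astrocytes. Erbb3, a neuregulin receptor of the lineage, fell to 23.4 and 20.5 CPM in precursors, against 99.7 and 115 CPM in mature oligodendrocytes (log2 fold change -3.00 ± 0.28, SE, edgeR adjusted p = 2.1e-24).

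The genes for chondroitin sulfate proteoglycans and the surrounding matrix were mostly higher in precursors. Of 31 tested against the other kept cells, 21 rose and 2 fell, against backgrounds of 10.2% and 12.7%, with a median log2 fold change of 2.26. Cspg5, which encodes the membrane proteoglycan neuroglycan C, had 1802 and 1804 CPM in precursors, against 217 and 199 CPM in the other kept cells and 49.5 and 52.9 CPM in mature oligodendrocytes. It was higher by 2.96 ± 0.13 and 4.44 ± 0.16 on the log2 scale in these comparisons (SE, edgeR adjusted p = 8.5e-108 and 6.8e-164). Ptprz1, a receptor phosphatase that carries chondroitin sulfate, had 1341 and 1585 CPM in precursors, against 70.8 and 73 CPM in the other kept cells and 503 and 454 CPM in astrocytes. It was higher than in astrocytes by 1.54 ± 0.17 on the log2 scale, and by 0.83 with cells carrying other-lineage markers left out.

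Vcan, which encodes versican, had 254 and 401 CPM in precursors, against 7.66 and 8.56 CPM in the other kept cells and 116 and 124 CPM in newly formed oligodendrocytes. Xylt1, the enzyme that starts each glycosaminoglycan chain, had 361 and 433 CPM in precursors, against 18.7 and 19.7 CPM in the other kept cells, and was higher by 4.22 ± 0.17 (log2, SE, edgeR adjusted p = 1.1e-133). Chst11, a chondroitin sulfotransferase, had 157 and 216 CPM, against 24.1 and 23.6 CPM. Emid1, a matrix protein gene, had 184 and 143 CPM in precursors, against 2.42 and 1.92 CPM in the other kept cells, and its log2 fold change of 6.07 ± 0.32 was the highest of the list.

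Not all matrix genes followed. Tnr, which encodes tenascin-R, had 518 and 591 CPM in precursors, against 1036 and 1083 CPM in newly formed and 8.43 and 12 CPM in mature oligodendrocytes. It was lower than in the newly formed cells by 1.24 ± 0.12 and higher than in the mature cells by 5.05 ± 0.19 (log2, SE, edgeR adjusted p = 7.6e-11 and 1.2e-149). Adamts4, a protease that cuts these proteoglycans, had 1 UMI in all precursors, against 431 in newly formed oligodendrocytes, where its CPM was higher by a ratio of 182 (exact 95% interval 32.4 to 7190). Bcan, which encodes brevican, had 595 and 684 CPM in precursors, against 665 and 651 CPM in astrocytes, and was not called there (-0.12 ± 0.17, edgeR adjusted p = 0.72). Once those with other-lineage markers were left out, it was called lower than in astrocytes (-0.85).

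**Figure D3:**
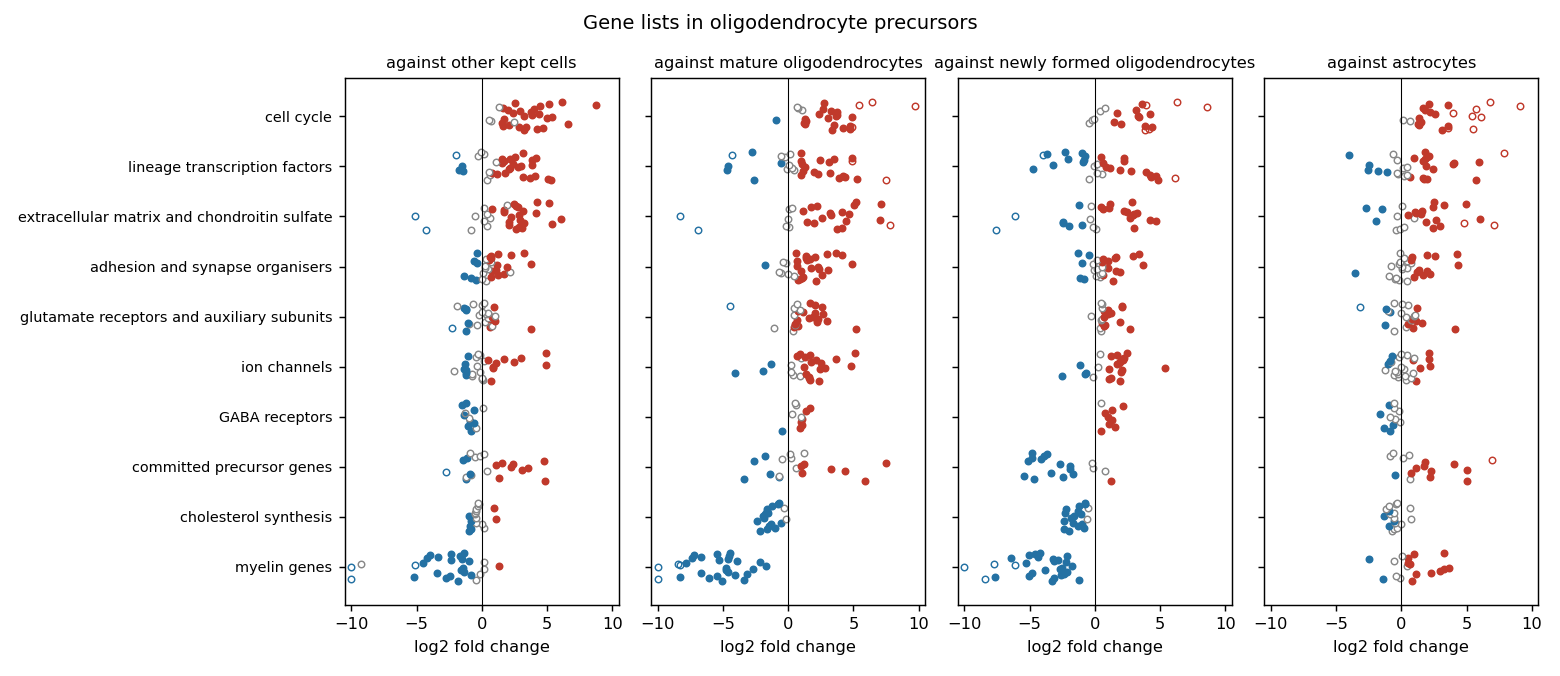
Log2 fold changes of 10 gene lists in precursors against each of the 4 comparator groups, with values beyond 10 in either direction drawn at 10. Filled red and blue points are genes called higher and lower, open coloured points are called genes with 3 or fewer UMIs in a group, and grey open points were not called. The cell cycle list lies to the right in all 4 panels, and the myelin and cholesterol lists lie to the left against both oligodendrocyte groups.

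Adhesion and synapse-organising genes were mostly higher in precursors than in mature oligodendrocytes, with 23 of 30 called higher and 1 lower against backgrounds of 18.3% and 20%. Pcdh15, a protocadherin, had 515 and 643 CPM in precursors, against 52.2 and 58.8 CPM in the other kept cells, and was higher by 3.23 ± 0.14 (log2, SE, edgeR adjusted p = 9e-108). Megf11, a receptor of the family that spaces like cells apart in the mouse retina, had 161 and 187 CPM in precursors, against 11.7 and 11.7 CPM. Both were higher in all 4 comparisons. Nxph1, which encodes a neurexin ligand, had 274 and 211 CPM in precursors, against 10.3 and 6.98 CPM in mature oligodendrocytes.

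Glutamate receptor genes were not higher in precursors than in the other kept cells as a group, but most were higher than in the other oligodendrocyte stages. Of 26 tested against the other kept cells, 6 rose and 6 fell, against backgrounds of 10.2% and 12.7%. With precursors carrying other-lineage markers left out, 8 rose and 7 fell, against backgrounds of 11.4% and 17.7%. Of 25 tested against mature oligodendrocytes 17 rose and 1 fell, against backgrounds of 18.3% and 20%, with a median log2 fold change of 0.93. Of 20 tested against newly formed oligodendrocytes 12 rose and none fell at this threshold, against backgrounds of 17% and 17.9%, with a median of 0.68. DESeq2 called 10 of 22 and 4 of 20 higher in these comparisons. The neuron marker list moved in the same direction, with 9 of 10 genes higher than in mature oligodendrocytes and a summed level of 9433 and 9292 CPM in precursors, against 3196 and 4057 CPM in mature oligodendrocytes. With cells carrying other-lineage markers left out, 17 of 21 receptor genes were higher against mature and 12 of 18 against newly formed oligodendrocytes, and 16 and 10 of these were also called with all cells. In the same comparisons 6 of 10 and 6 of 8 neuron markers were called higher, all of them also called with all cells. The part of such cells in the receptor values was not tested further.

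Gria2, the subunit that makes AMPA receptors impermeable to calcium, had 699 and 874 CPM in precursors, against 102 and 112 CPM in mature oligodendrocytes and 551 and 609 CPM in the other kept cells. It was higher than in mature oligodendrocytes by 2.17 ± 0.15 (log2, SE, edgeR adjusted p = 7.7e-47) and by 3.73 with cells carrying other-lineage markers left out. Cacng4, which encodes the AMPA receptor auxiliary subunit TARP gamma-4, had 659 and 626 CPM in precursors, against 42.6 and 43.7 CPM in the other kept cells, and was higher by 3.74 ± 0.14 (log2, SE, edgeR adjusted p = 1.1e-143). After thinning to 2000 UMIs, Cacng4 was found in 74.1% and 76.7% of precursors, against 0.685% and 1.74% of mature oligodendrocytes. Grin3a, an NMDA receptor subunit, had 247 and 178 CPM in precursors, against 94.8 and 103 CPM in the other kept cells. Grin1, the subunit every NMDA receptor needs, had 70.2 and 120 CPM in precursors, against 203 and 199 CPM in the other kept cells, and fell by 1.22 on the log2 scale (SE 0.19, edgeR adjusted p = 3.5e-09).

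None of the 12 GABA receptor genes tested was higher than in the other kept cells, and 8 were lower, against backgrounds of 10.2% and 12.7%. DESeq2 called 4 of 12 lower. Of the other kept cells, 1642 of 3189 and 1857 of 3527 had more than 10 UMIs of Snap25, Syt1, Stmn2 and Rbfox3 together. The part of those cells in the lower calls was not tested. Against astrocytes 5 of 11 were lower and none higher, against backgrounds of 9.87% and 9.93%. Gabrb1 had 140 and 96.5 CPM in precursors, against 271 and 285 CPM in the other kept cells, and fell by 1.40 on the log2 scale (SE 0.18, edgeR adjusted p = 9e-14). Against newly formed oligodendrocytes 8 of 9 were higher, against a background of 17%, and 6 of 8 tested were higher with cells carrying other-lineage markers left out, but DESeq2 called 1 of 9. The neuron markers moved the same way there, with 8 of 9 higher, and their part in the result was not tested.

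Of 26 ion channel genes tested against mature oligodendrocytes, 18 were higher in precursors and 3 lower, against backgrounds of 18.3% and 20%. The neuron markers rose in the same comparison, and with cells carrying other-lineage markers left out 18 of 26 were higher, 17 of them also called with all cells. DESeq2 called 10 of 26 higher. Of 28 tested against the other kept cells, 10 were higher and 6 lower, against backgrounds of 10.2% and 12.7%. With precursors carrying other-lineage markers left out, 10 were higher and 9 lower, against backgrounds of 11.4% and 17.7%. Kcnip3, which encodes a calcium-binding partner of A-type potassium channels, had 411 and 479 CPM in precursors, against 12.7 and 13.2 CPM in the other kept cells, and was higher by 4.95 ± 0.17 (log2, SE, edgeR adjusted p = 1.2e-181). Tmem100, a small membrane protein, had 294 and 415 CPM, against 9.73 and 11.2 CPM. Both were higher in all 4 comparisons. Kcnj10, the inward rectifier Kir4.1 through which glia buffer potassium, had 251 and 196 CPM in precursors, against 388 and 400 CPM in newly formed oligodendrocytes, 330 and 343 CPM in mature oligodendrocytes and 386 and 432 CPM in astrocytes. It was lower than in each of these, by 1.14, 1.30 and 0.96 on the log2 scale.

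Among receptors for modulators and lipids, S1pr2, a sphingosine 1-phosphate receptor, had 40.1 and 52.6 CPM in precursors, against 1.03 and 1.13 CPM in the other kept cells, and was higher by 5.27 ± 0.56 (log2, SE, edgeR adjusted p = 5.7e-19). Adora1, the A1 adenosine receptor, had 214 and 196 CPM in precursors, against 44.1 and 48.9 CPM. Ednrb, the endothelin B receptor, had 144 and 161 CPM in precursors, against 22.3 and 32.5 CPM in the other kept cells and 402 and 455 CPM in astrocytes. Lpar1, a lysophosphatidic acid receptor, was low, with 10 and 14.6 CPM in precursors against 426 and 442 CPM in mature oligodendrocytes. Of 35 such receptor genes tested against the other kept cells, 6 rose and 8 fell, against backgrounds of 10.2% and 12.7%. With precursors carrying other-lineage markers left out, 6 rose and 10 fell, against backgrounds of 11.4% and 17.7%. Hcrtr2, a receptor for the hypocretin peptides made in this brain region, had 0 UMIs in precursors against 555 in the other kept cells, at least 2.43-fold lower when set at 3 counts over all precursors.

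Guidance genes split between groups. Against newly formed oligodendrocytes 3 of 19 rose and 9 fell, against backgrounds of 17% and 17.9%. Of 24 tested against mature oligodendrocytes 10 rose and 6 fell, against backgrounds of 18.3% and 20%. Of 25 tested against the other kept cells 7 rose and 9 fell, against backgrounds of 10.2% and 12.7%. Of 22 tested against astrocytes 4 rose and 4 fell, against backgrounds of 9.93% and 9.87%. Efnb3, an ephrin ligand, had 53.5 and 64.3 CPM in precursors, against 364 and 436 CPM in newly formed and 663 and 640 CPM in mature oligodendrocytes. Unc5b, a netrin receptor, had 6.69 and 8.77 CPM in precursors, against 271 and 262 CPM in mature oligodendrocytes, and fell by 5.77 on the log2 scale (SE 0.31, edgeR adjusted p = 8.4e-73). Sema3d, a secreted semaphorin, had 97 and 70.2 CPM in precursors, against 86.8 and 81.2 CPM in newly formed oligodendrocytes and 6.45 and 6.64 CPM in the other kept cells.

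Genes of the step out of the precursor state stood mostly below their level in newly formed oligodendrocytes. Of 18 tested, 14 fell and 1 rose, against backgrounds of 17.9% and 17%, with a median log2 fold change of -3.03. The newly formed cells were gated on Gpr17, Enpp6 and Bmp4, genes of this same step. The count and the lower values of its members, given next, therefore describe that gate, and nothing is read from them. Nfasc, which encodes the axon adhesion protein neurofascin, had 120 and 102 CPM in precursors, against 2804 and 3395 CPM in newly formed oligodendrocytes, and fell by 5.11 on the log2 scale (SE 0.15, edgeR adjusted p = 1.5e-26). Fyn, a kinase of process outgrowth, had 167 and 146 CPM in precursors, against 1388 and 1234 CPM. Bcas1, a marker of early myelinating cells, had 171 and 231 CPM in precursors, against 931 and 805 CPM.

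Not every gene of that list was lower in precursors. Neu4, a sialidase, had 214 and 243 CPM in precursors, against 275 and 175 CPM in newly formed oligodendrocytes, and was not called between them (-0.24 ± 0.18, edgeR adjusted p = 0.33). Mature oligodendrocytes had 0.733 and 0.665 CPM. The uncharacterised gene 3110035E14Rik had 341 and 374 CPM in precursors, against 129 and 113 CPM in newly formed oligodendrocytes, and was the only list member higher in precursors there (1.27 ± 0.17, edgeR adjusted p = 1e-07). Gpr17 had 762 and 924 CPM in precursors, against 30 and 20.4 CPM in astrocytes, and after thinning it was found in 75.3% and 79.6% of precursors.

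Myelin genes were low in precursors. Since Mog, Mag and Opalin took part in the rule and in the gate of mature oligodendrocytes, the other myelin genes are given as a description: all 28 tested were lower than in mature and all 28 lower than in newly formed oligodendrocytes, and the backgrounds of lower genes were 20% and 17.9%. The limits on Mog, Mag and Opalin set the 2 arms apart, so nothing is read from these counts. Aspa and Klk6 had 0 UMIs in all precursors, at least 62.6-fold and 5.63-fold lower than in mature oligodendrocytes with 3 counts set over all precursors. Mbp had 3013 and 3210 CPM in precursors, against 1824 and 1865 CPM in astrocytes. After thinning, Mbp was found in 96.5% and 96.1% of precursors, against 92.9% and 91.1% of astrocytes (median depths 2499 and 2903 UMIs before thinning), which do not make myelin. These shares are near their ceiling and cannot show a difference, and the source of the Mbp UMIs in precursors was not tested. Pmch, the peptide gene of melanin-concentrating hormone neurons, was found in 52.9% and 36.9% of thinned precursors.

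Against astrocytes 11 of 18 myelin genes were higher and 2 lower, against backgrounds of 9.93% and 9.87%. With cells carrying other-lineage markers left out, 6 and 3 of 14 were higher and lower, against backgrounds of 15.4% and 17.1%. DESeq2 called 5 of 18 higher and 1 lower. Both groups were limited to 2 UMIs of Mog, Mag and Opalin together, so these counts describe cells chosen to be low in myelin transcripts. Ugt8a and Fa2h, which make the galactolipids of myelin, had 93.6 and 73.1 CPM and 46.8 and 46.8 CPM in precursors, against 8.17 and 7.36 CPM and 4.09 and 6.54 CPM in astrocytes. They were higher by 3.30 ± 0.41 and 2.96 ± 0.48 on the log2 scale (SE, edgeR adjusted p = 1.3e-08 and 4.4e-06). Gal3st1, the sulfotransferase of the same lipids, was higher by 3.30 ± 0.43 (edgeR adjusted p = 4.7e-08). Gjc3, a connexin gene, had 261 and 348 CPM in precursors, against 97.4 and 119 CPM in the other kept cells, and was the only one of 28 myelin genes called higher in that comparison.

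Cholesterol synthesis genes, which oligodendrocytes need for membrane growth, were lower in precursors than in both other stages. In mature and newly formed oligodendrocytes the comparison gave 16 of 18 and 16 of 18 lower in precursors and none higher (medians -1.51 and -1.29). The backgrounds of lower genes were 20% and 17.9%, and DESeq2 called 9 and 8 of 18 lower. Against astrocytes 4 of 18 were also lower and none higher, against a background of lower genes of 9.87%. With cells carrying other-lineage markers left out, 12 of 17 were lower than in astrocytes, against a background of 17.1%. Hmgcs1, an early enzyme of the pathway, had 244 and 149 CPM in precursors, against 736 and 901 CPM in newly formed oligodendrocytes, and fell by 2.38 on the log2 scale (SE 0.17, edgeR adjusted p = 8.5e-15). It fell by 3.50 with cells carrying other-lineage markers left out.

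A small share of precursors carried transcripts of dividing cells. Mki67 or Top2a, genes of dividing cells, had at least 1 UMI in 5 of 87 precursors (5.75%, Clopper-Pearson 95% interval 1.89% to 12.9%) and in 11 of 103 (10.7%, 5.45% to 18.3%), against 46 (1.44%) and 50 (1.42%) of the other kept cells. Thinned to 2000 UMIs, the shares were 5.88% and 9.71% of precursors, against 0.659% and 0.425% of the other kept cells, with precursor intervals of 1.94% to 13.2% and 4.75% to 17.1%. The intervals of the 2 libraries overlapped. The signal in precursors came from cells with many such UMIs: 5 and 9 precursors had 2 or more and the highest had 13 and 12, against 2 and 3 of the other kept cells with 2 or more. Newly formed oligodendrocytes had 2 of 105 and 3 of 137 cells with a UMI, each with exactly 1. Their thinned intervals reached up to 5.19% and 4.00%, and the first overlapped that of the precursors. In mature oligodendrocytes all 8 and 12 cells with a UMI had exactly 1, and in astrocytes 0 of 168 and 1 of 258 cells had one. A count of 0 of 168 allows a share of cells with such a UMI of up to 1.79% (3 counts of the total), and its Clopper-Pearson upper bound is 2.17%.

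**Figure D4:**
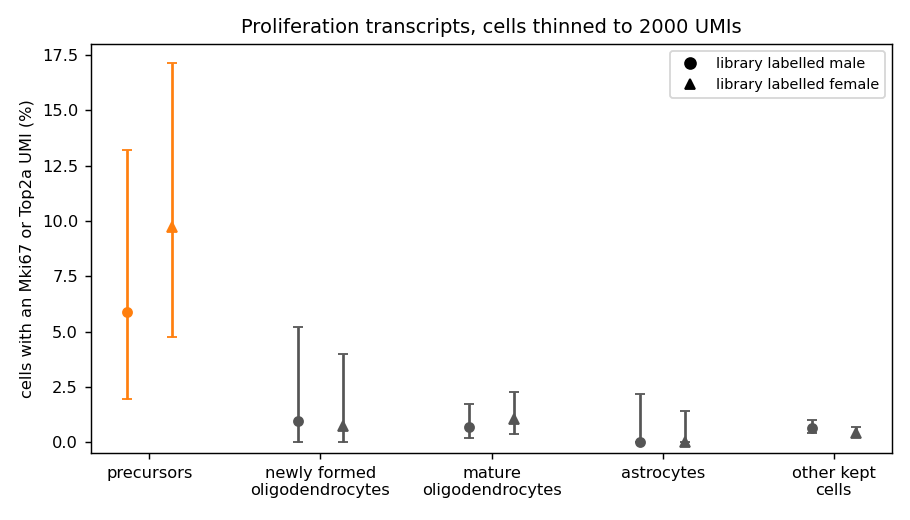
The percent of cells with at least 1 UMI of Mki67 or Top2a after thinning to 2000 UMIs, with exact Clopper-Pearson 95% intervals, in precursors and the comparator groups of each library. The precursors of both libraries lie at 5.88% and 9.71%, above the value of every comparator group. In the library labelled male the precursor interval overlaps those of newly formed oligodendrocytes and astrocytes.

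Most of the cell cycle list was higher in precursors, and its genes differed in how much of their signal lay in the cells with Mki67 or Top2a UMIs. Of 30 tested against the other kept cells, 26 rose and none fell at this threshold, against backgrounds of 10.2% and 12.7%, with a median log2 fold change of 3.23. Top2a, an enzyme that untangles chromosomes, had 80.3 and 123 CPM in precursors, against 0.269 and 0.151 CPM in the other kept cells. It had no UMI in mature oligodendrocytes, newly formed oligodendrocytes or astrocytes, so it was at least 197-fold, 52.2-fold and 67.2-fold higher in precursors with 3 counts set over each group. The 16 cells with a UMI of Mki67 or Top2a, which hold all UMIs of these 2 genes by their choice, also held all precursor UMIs of Ccnb1, Ccnb2 and Ube2c, genes of mitosis, and 91.2% of those of the inhibitor gene Cdkn2c. Others lay between, such as Cenpf with 66.7%, Tyms with 53.6% and Rrm1 with 50% of their UMIs in those cells.

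Cyclin D genes behaved otherwise. Ccnd1, which encodes the cyclin of the growth-factor-controlled step of the cycle, had 438 and 450 CPM in precursors, and 419 and 413 CPM once the 16 cells were left out, against 37.2 and 39.5 CPM in the other kept cells. It was higher by 3.38 ± 0.15 on the log2 scale (SE, edgeR adjusted p = 3.5e-105), and after thinning it was found in 56.5% and 62.1% of precursors, against 7.0% and 6.95% of the other kept cells. Only 15.8% of its UMIs lay in the 16 cells. Ccnd2 and Cdk4, its relative and its kinase partner, had 7.61% and 13.8% of their UMIs in them. Without the 16 cells, 13 of 26 cell cycle genes tested were higher than in the other kept cells, all of them among the 26 called with all cells, with a median of 1.62, and none was lower.

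**Figure D5:**
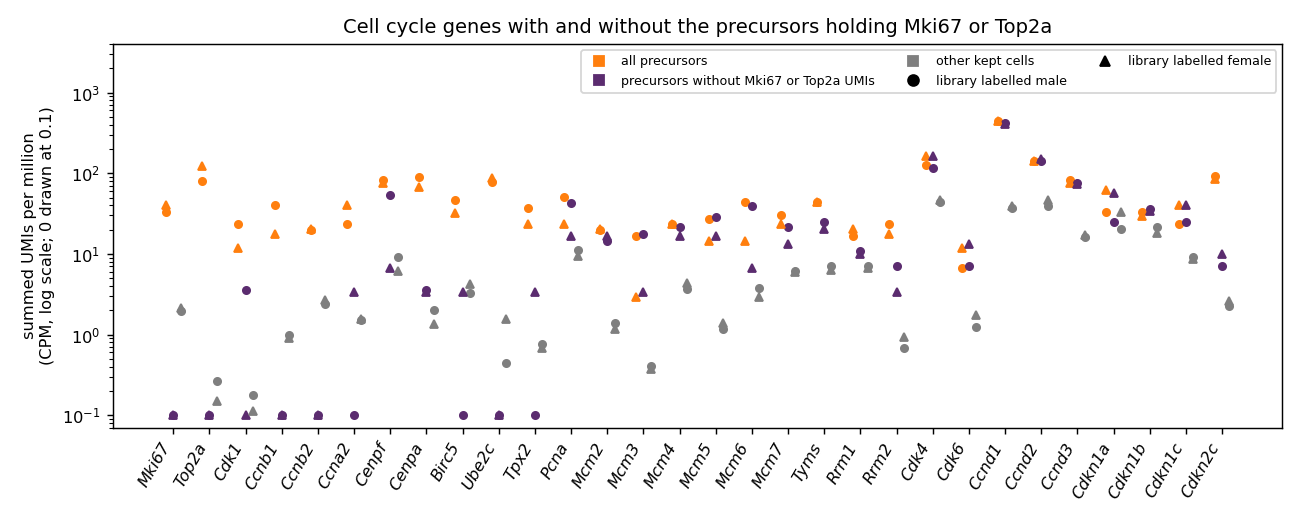
CPM of cell cycle genes in all precursors, in precursors without the 16 cells that had Mki67 or Top2a UMIs, and in the other kept cells, on a log axis with 0 drawn at 0.1. Top2a and Mki67 drop to 0 without those cells, while Ccnd1 stays at 419 and 413 CPM.

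Genes with the largest fold changes in each comparison, whether or not they are on a list, were named by a fixed rule. Against the other kept cells the 12 highest were Top2a, Sapcd2, Lockd, Ube2c, Irx1, Emid1, Prc1, Rlbp1, 2810417H13Rik, Fam89a, Lmcd1 and A930009A15Rik, with log2 fold changes from 8.75 to 5.59. Top2a, Ube2c and Prc1 act in mitosis, Irx1 is a homeobox factor and Rlbp1 binds retinaldehyde. In the GENCODE M21 annotation of GRCm38, a mouse build, these protein-coding genes lie as follows: Top2a at chr11:98992943-99024189 (minus strand), Irx1 at chr13:71957921-71963723 (minus strand), Emid1 at chr11:5106265-5152257 (minus strand) and Rlbp1 at chr7:79374870-79387048 (minus strand). Irx1 had 53.5 and 46.8 CPM in precursors, against 0.717 and 0.603 CPM, and Rlbp1 had 93.6 and 67.2 CPM, against 1.39 and 0.905 CPM. The 12 lowest were mainly genes of myelin and of neurons, among them Cldn11, Hapln2, Mal, Oxt, Trf, Nell1, Gm15440, Tmem88b, Ermn, Ppp1r14a and Ecel1. Oxt, the oxytocin gene of a few hypothalamic neurons, had 3.34 and 11.7 CPM in precursors, against 55.8 and 197 CPM.

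Against mature oligodendrocytes the rule added Susd5 and 5730559C18Rik among higher genes, each with 2 UMIs in the mature cells and CPM ratios of 385 (exact 95% interval 103 to 3227) and 170.0 (43.9 to 1454). Among lower genes it added Car14, a carbonic anhydrase, Smco3, Itgb4, Rab7b, Insc, Gm13293 and Cldn14, all with 0 UMIs in precursors. Car14 was at least 40.9-fold lower and Cldn14 at least 11.2-fold lower. Against newly formed oligodendrocytes it added Cdo1, a cysteine dioxygenase, with 197 and 146 CPM in precursors against 1.64 and 3.29 CPM (log2 fold change 5.57 ± 0.42, SE, edgeR adjusted p = 8.6e-14), and Spry4 and Etv4, which had 2 UMIs and 1 UMI there. It also added Acta2, Ptrf and Tm4sf1, genes of vessel-wall cells. These 3 were not tested once cells carrying other-lineage markers were left out, because too few UMIs remained. Among lower genes it added Rassf10, Igsf11, Nipal4 and Wfdc18 with 0 UMIs in precursors, at least 19.1-fold, 14.3-fold, 12.6-fold and 9.97-fold lower, and Tmem125 with 1 UMI.

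Against astrocytes the higher genes included Snx22, a sorting nexin, with 124 and 140 CPM in precursors and 2 UMIs in all astrocytes, a CPM ratio of 130 (exact 95% interval 34.8 to 1089). The lower genes were mainly those of astrocytes. Gfap, their filament protein, had 13.4 and 17.5 CPM in precursors, against 597 and 698 CPM, and fell by 5.44 on the log2 scale (SE 0.30, edgeR adjusted p = 3.1e-19). Myoc had 0 UMIs in precursors against 319 in astrocytes, at least 34.8-fold lower. Itih3, Agt and Sox1 had 46.8 and 11.7, 43.5 and 26.3, and 6.69 and 5.85 CPM in precursors, against 669 and 615, 612 and 569, and 110 and 92.4 CPM. C4b, Tlr3, Eva1a, Fam20a, Prodh, AI464131 and Phkg1 completed the list, with at most 7 UMIs each in all precursors.

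The spread among precursors was set against counting error at equal depth. Thinned to 2000 UMIs, 1627 genes had a mean of at least 0.2 UMIs in both libraries, and the median ratio of variance to mean was 1.05 and 1.04, where counting alone gives a ratio of 1. At such low means counting error holds the ratio near 1, so the median does not measure how much the cells differed. The ratio reached 2 in both libraries for 24 genes. They included Mbp (6.92 and 5.77), transcripts best known from other cells (Meg3, Snhg11, Rgs5 and Pmch), genes of dividing cells (H2afz, 3.49 and 3.23; Hmgb2, 2.58 and 2.46) and Gpr17 (2.32 and 2.17).

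Precursors with 2 or more Gpr17 UMIs (54 and 73 cells) were set against those with none (13 and 14 cells), to see whether the commitment marker divides the group. By edgeR, 2 of 2693 genes tested (0.0743%) were higher in the Gpr17-high cells and 36 (1.34%) were lower, 1.41% in all, and the self-test with known changes recovered 52% of 4-fold and none of 2-fold changes at this size. C1ql3, a relative of C1ql1, had 335 and 87.5 CPM in Gpr17-high cells, against 0 and 16.2 CPM, with 78 UMIs against 1, a CPM ratio of 19.3 (exact 95% interval 3.36 to 771). It was not called by DESeq2, under which no gene was higher, nor without the library block, and its log2 fold change was 4.75 in the library labelled male and 1.88 in the library labelled female. The lower genes named by the rule, Dcn, Nid1, Tm4sf1, Gkn3, Apod, Rgs5, Adgrf5, Itih5, Igf2, S1pr1, Ifitm3 and Notch3, are mostly known from fibroblasts, mural cells and vessels. Rgs5, a pericyte gene, had 23.5 and 37.5 CPM in Gpr17-high cells, against 1684 and 1348 CPM in Gpr17-zero cells. The marked cells were unequally shared, and with cells carrying other-lineage markers left out only 8 and 9 Gpr17-zero cells remained, too few for the fit. Mki67 or Top2a was found in 3 of 54 and 6 of 73 Gpr17-high cells, against 2 of 13 and 1 of 14 Gpr17-zero cells, and the exact intervals overlapped in each library.

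The 2 libraries were also set side by side, with no test because each label has 1 library. Of 5045 genes with at least 50 CPM in the higher library, 219 (4.34%) were 2-fold or more higher in the precursors of the library labelled male and 188 (3.73%) in those of the library labelled female, 8.07% in all. The largest ratios included those of hemoglobin genes and of neuron genes. One precursor of the library labelled female held 721 hemoglobin UMIs, and Pmch had 4802 CPM in the library labelled male against 325 CPM in the library labelled female.

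With cells carrying other-lineage markers left out, 320 of 5075 genes (6.31%) were 2-fold or more higher in the library labelled male and 291 (5.73%) in the library labelled female. Of 18 early response genes, which respond to activity and to tissue dissociation, 8 had at least 50 CPM in the higher library, of which 7 were 2-fold or more higher in the library labelled male and none in the library labelled female. Each label has 1 library, so this describes these libraries, and the intervals cover counting error only. Egr1 had 70 UMIs (396 CPM) there, against 5 UMIs (22.2 CPM) in the library labelled female, a ratio of 17.9 (exact 95% interval 7.31 to 56.8), and in the other kept cells the ratio was 0.855. Fos had 56 UMIs (317 CPM), against 4 UMIs (17.7 CPM), a ratio of 17.9 (6.61 to 67.9), with 1.16 in the other kept cells. Over all precursors, 36 of 87 cells had a Fos UMI in the library labelled male, against 8 of 103 in the library labelled female. Jun and Junb had ratios of 4.86 (3.43 to 7.03) and 9.26 (3.25 to 36.2), with 2.08 and 2.48 in the other kept cells. Ier2, Dusp1 and Jund, the rest of the 7, had ratios of 11.1, 3.28 and 2.15, with 2.06, 1.57 and 1.25 in the other kept cells. Nr4a1 and Btg2 had ratios of 1.43 and 0.912 with intervals that included equality, and 0.583 and 1.55 in the other kept cells. The genes of the rule had ratios from 0.821 to 1.12 in the same cells for Pdgfra, Cspg4, C1ql1 and Matn4.

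By the same size rule with those cells left out, Ppil1, Chil1, Rpa1, Gjb1, Trmt6 and Ier2 were the other genes with the largest ratios in the library labelled male, and Med14, Atad5, Mfsd11, 3110056K07Rik, Gm5914, Nutf2, Zbtb37 and Copz1 in the library labelled female. Chil1, a chitinase-like gene, had 16 UMIs in the library labelled male, against 1 in the library labelled female, a CPM ratio of 20.4 (exact 95% interval 3.17 to 857). Med14, an X-linked subunit of the Mediator complex, had 1 UMI in the library labelled male, against 16 in the library labelled female, a ratio of 0.0798 (0.0019 to 0.514). Intervals this wide, over 5075 genes, set no gene of this kind apart.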

How the data were processed

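The authors deposited raw unique molecular identifier counts per gene and cell barcode for 2 libraries, made with 10x Chromium v2 chemistry per the labels' protocols. Per the submitters' processing notes, Cell Ranger 2.2.0 and the mouse build mm10 (GRCm38) were used, and no source used here gives the annotation release or the strand setting. The 2 files hold 3439 and 3793 barcodes with 23151801 and 27437142 UMIs, and 163 barcodes in each failed the filter of 500 genes and 20% mitochondrial UMIs. Doublets were kept, as the rule states, and removed in an alternative. The library is a block in each fit because both cell groups of a library come from the same pooled animals. The 2 libraries are the only replicates. With 1 residual degree of freedom, the p-values rest on the spread shared across genes, and little or not at all on each gene's own spread. In the fits against the other kept cells and mature oligodendrocytes the prior degrees of freedom were infinite, so each gene's own spread had no weight. They were 36.2 against newly formed oligodendrocytes, 43.5 against astrocytes and 36.2 between the Gpr17 groups. Each SE is the absolute log2 fold change over the square root of the test's F statistic, so it shares this limit.

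Counts were summed per library and cell group and tested with edgeR 4.0.16 in R 4.3.3 (quasi-likelihood, TMM, filterByExpr), with DESeq2 1.42.0 as an alternative. Cells were handled with Python 3.11.15, scanpy 1.11.5, NumPy 2.4.6, SciPy 1.17.1 and pandas 2.3.3. On simulated counts with 200 changed genes, 66%, 70%, 86%, 82% and 52% of 50 genes changed 4-fold were called in the comparisons with the other kept cells, mature oligodendrocytes, newly formed oligodendrocytes and astrocytes and of Gpr17-high with Gpr17-zero precursors. Of the gene identifiers, 98.8% matched GENCODE M21, from which positions were taken.

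Genes of each fit, on a list or not, were named as the 12 highest and 12 lowest log2 fold changes in each fit with an adjusted p under 0.05, the same direction in both libraries and 50 CPM or more where higher, leaving out gate, mitochondrial and sex-linked genes. Between the libraries, up to 8 genes each way were named by a 2-fold difference. From the lists, the highest and lowest called members with at least 20 CPM were named, and others were chosen after their values were seen. A few genes are counted in their lists but not reported here by name. The members and lists were chosen with earlier results of these data known. Alternatives changed the normalization, the filter, the test, the block, the cell filter, the gate, the depth and the cells with other markers.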

Additional observations from a re-analysis of the deposited data

Results flagged for a closer look

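The sex-linked transcripts, which no comparison uses, stood out against the labels. Precursors of the library labelled male held 850 UMIs of Xist, against 0 in precursors of the library labelled female. Precursors of the library labelled female held 94 UMIs of the Y-linked genes Ddx3y, Eif2s3y, Kdm5d and Uty together, against 0 in precursors of the library labelled male. The cause was not tested.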

How the results depend on the processing

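All values of genes named by the fold change rule kept their direction under each alternative run for them, 1162 kept their side of the threshold or moved by less than the spread, 118 moved with 1 library left out and 40 lost their call, 30 of them under DESeq2's Wald test. Among list members, 16 of 937 called values had the other sign with cells carrying other-lineage markers left out, Notch3 against the other kept cells among them (-1.99, against 1.78 with all cells), and 4 were then called in the other direction. DESeq2's test called 838 and 653 genes higher and lower in precursors against the other kept cells, 737 and 903 against mature oligodendrocytes, 293 and 562 against newly formed oligodendrocytes and 191 and 145 against astrocytes, and 0 and 6 in Gpr17-high against Gpr17-zero precursors. Thinning cells to 3000 UMIs, which leaves out most precursors, gave 195 and 387, 701 and 1083, 562 and 645, and 115 and 59 in the 4 comparisons. That setting kept 16 and 18 precursors, among them all 6 in each library with more than 10 UMIs of the neuron genes. It gives more weight to precursors with other-lineage markers, so it is not a depth check of the others. Thinning to 2000 UMIs, added after seeing the data, gave 745 and 796 against newly formed oligodendrocytes and 1 and 2 between the Gpr17 groups. Cells with 1000 genes and at most 10% mitochondrial UMIs gave 940 and 1127 against mature oligodendrocytes and 581 and 411 against astrocytes. Without the library block (no replicate block), the counts were 1441 and 1586, 1796 and 1934, 1045 and 1133, and 777 and 740, and 1 and 31 between the Gpr17 groups.

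Between the Gpr17 groups, DESeq2's size factors in edgeR gave 1 and 18, no filter on low counts gave 7 higher, removal of the highest doublet scores gave 1 higher and a stricter gate gave 1 and 0, and 156 genes had an unadjusted p under 0.05. That comparison could not be fitted for cells without other-lineage markers, for 3000 UMIs or for the stricter cell filter. A looser gate raised the share of precursors to 4.91% and 5.37%, and a stricter gate gave 2.12% in the library labelled female. Between the libraries, thinning to 3000 and 2000 UMIs gave 1193 and 344 genes higher in the library labelled male and 1469 and 322 in the library labelled female. The values at 3000 UMIs rest on the same 16 and 18 precursors. For the library labelled female, a stricter gate gave 313 and cells without other-lineage markers 291. The cause of these changes was not tested. With 190 precursors at medians of 2364 and 2503 UMIs, changes of low genes were the least detectable.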
